A study of Mus musculus with 30 samples.

Results

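Transcripts of 8 genes of the renin-angiotensin system were followed in kidney and gastrocnemius muscle of mice fed a control or a western diet, with or without cyclo(His-Pro) (CHP), a small cyclic peptide made of histidine and proline. The genes were taken by symbol from the gene names of the deposited tables, and all 8 were found among 54838 kidney genes and 55487 gastrocnemius genes. They were *Ren1*, *Agt*, *Ace*, *Agtr1a*, *Mme*, *Enpep*, *Anpep* and *Atp6ap2*. A filter on low counts kept 8 of them in kidney and 7 in gastrocnemius, where *Ren1* was left out. The libraries came from wild-type male C57BL/6J mice of the diet-induced steatohepatitis model, each library from 1 mouse, with 5 libraries per group and tissue and 30 in all. Mice of all 3 groups were kept at thermoneutrality (30 to 32 °C) from Week 6, received their diet and gavage from Week 7, and were killed at Week 24 after fasting for 3 h. The CD group ate the control diet and the WD group the western diet, and both were gavaged with water. The WD+CHP group ate the western diet and was gavaged with CHP at 20 mg/kg, 3 times per week. Liver, a main source of circulating angiotensinogen, was not analysed here.

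The renin-angiotensin system raises blood pressure and retains salt through a cascade of cleavages. Renin, secreted by juxtaglomerular cells of the kidney, cuts angiotensinogen to angiotensin I, and angiotensin-converting enzyme then makes angiotensin II, which acts mainly on the AT1 receptor. Membrane peptidases of the proximal tubule brush border and of other cell surfaces trim these peptides further, and neprilysin can yield angiotensin-(1-7) in place of angiotensin II. The comparison of WD with CD asks how the diet moved these transcripts, and that of WD+CHP with WD asks how CHP moved them on the same diet.

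Each kidney library held 37189192 to 38211422 reads on genes, and each gastrocnemius library 50319024 to 53282969. All 15 proximal tubule markers passed the filter in kidney and 2 in gastrocnemius, where *Slc5a12* and *Slc22a6* were at 0 in every library. Of 12 fast fibre markers, 12 passed in gastrocnemius and 5 in kidney, where *Myh4* was at 0. The sample labels name frozen liver as the starting material, so hepatocyte markers were checked too. The summed level of 10 such markers, in CPM (counts per 1000000 counts of the scaled library), was 17.6 to 42.9 in the kidney libraries other than CD replicate 1 (109) and WD replicate 5 (586). In gastrocnemius it was 0.682 to 15.3 other than in CD replicate 1 (60.2) and WD replicate 3 (66.2). In bulk tissue, fewer cells of a type and less RNA per cell cannot be told apart.

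All 8 members were at a higher level in kidney than in gastrocnemius, and the gap was widest for renin. *Ren1* (chr1:133350510-133360325, GRCm38), which encodes renin, had 37.6 to 97.8 CPM in the 15 kidney libraries. In gastrocnemius it had 5 reads in all, spread over 4 of 15 libraries with at most 2 reads each. The pooled muscle level was 0.00638 CPM (exact Poisson 95% interval 0.00207 to 0.0149, counting error only), and the kidney mean was 9080-fold above it (3891 to 27970). For the other members, the ratio of the median CPM in kidney to that in gastrocnemius was 5.96 for *Atp6ap2*, 6.09 for *Ace*, 7.33 for *Agt*, 17.3 for *Agtr1a*, 31.2 for *Anpep*, 32.1 for *Enpep* and 49.5 for *Mme*. No member's levels overlapped between the tissues, as was the case for 73.0% of all 18708 genes compared, with 53.5% lying higher in kidney. No test was made of these gaps, because the 2 tables were normalised separately and the labels name different extraction kits.

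Levels of different genes were compared per kb of exon, where the length is the union of all annotated exons of a gene. The order rests on that length, which was 11542 bases for *Mme* and 2618 for *Atp6ap2*. In CPM without it, kidney *Mme* (186 to 303) lay above *Atp6ap2* (72.5 to 82.6). In kidney the order of the medians, in CPM per kb, was *Anpep* (62.6), *Ace* (57.1), *Ren1* (36.0), *Agt* (35.3), *Enpep* (34.4), *Atp6ap2* (30.7), *Mme* (19.8) and *Agtr1a* (17.0). Among neighbours in that order, only *Atp6ap2* and *Mme* had ranges over the 15 libraries that did not overlap (27.7 to 31.6 and 16.1 to 26.3). In gastrocnemius the order was *Ace* (9.38), *Atp6ap2* (5.16), *Agt* (4.81), *Anpep* (2.01), *Enpep* (1.07), *Agtr1a* (0.979) and *Mme* (0.399). There, *Ace* lay above *Atp6ap2*, *Agt* above *Anpep*, and *Agtr1a* above *Mme* in every library, while the ranges of the other neighbours overlapped. The order of the first 2 kidney genes differed by group, since *Ace* had a mean of 59.6 and *Anpep* one of 57.7 CPM per kb in CD, against 52.2 and 67.5 in WD and 62.0 and 66.7 in WD+CHP. *Anpep* stood behind *Ace*, *Atp6ap2* and *Agt* in muscle, and *Mme* was last or next to last in both.

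**Figure D1:**
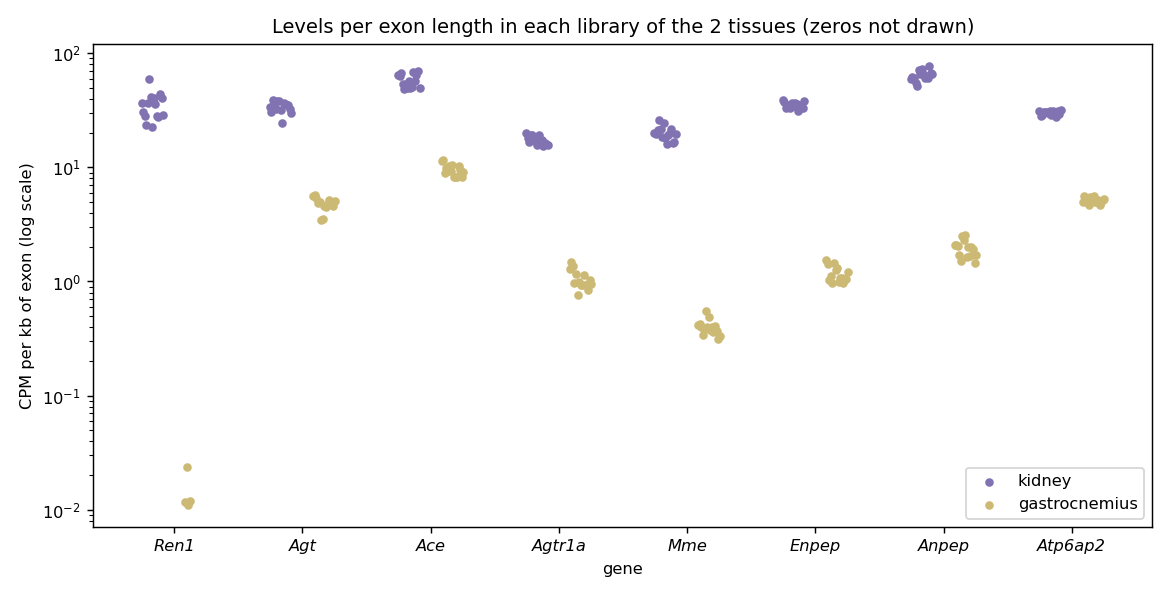
Level of each member in each library, as CPM per kb of exon on a log axis, with 15 kidney points (purple) and 15 gastrocnemius points (ochre) per gene. The tissues do not overlap for any of the 8 genes (73.0% of all genes do not overlap), and *Ren1* in muscle shows only the 4 libraries that held a read.

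The stretch of 150 bases before the start site is given for the renin gene, its substrate gene and the prorenin receptor gene, since the gap between the tissues was widest for the first of these and among the narrowest for the last. They come from RefSeq's GRCm38.p6 table, which held windows for 7 of the 8 members, and *Agtr1a* had none. They run 5′ to 3′ on the gene's own strand, and capitals mark the motifs searched on both strands, namely TATAAA (the TATA box), CCAAT (the CCAAT box), GGGCGG (the GC box), TGACGT (the core of the cAMP response element) and AGGTCA (a nuclear receptor half-site). *Ren1* is at chr1:133350524-133350673 (plus strand), *Agt* at chr8:124569707-124569856 (minus strand) and *Atp6ap2* at chrX:12587609-12587758 (plus strand). Positions count from RefSeq's start sites, whereas the gene coordinates given elsewhere are GENCODE's. The GENCODE gene starts upstream of the stretch for *Ren1* (133350510) and downstream of RefSeq's start for *Atp6ap2* (12587801).
Ren1: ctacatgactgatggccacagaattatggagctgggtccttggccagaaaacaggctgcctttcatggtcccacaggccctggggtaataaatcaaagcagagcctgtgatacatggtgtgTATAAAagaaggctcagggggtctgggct
Agt: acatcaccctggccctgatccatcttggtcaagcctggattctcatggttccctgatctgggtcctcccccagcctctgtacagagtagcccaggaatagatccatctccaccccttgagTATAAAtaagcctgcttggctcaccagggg
Atp6ap2: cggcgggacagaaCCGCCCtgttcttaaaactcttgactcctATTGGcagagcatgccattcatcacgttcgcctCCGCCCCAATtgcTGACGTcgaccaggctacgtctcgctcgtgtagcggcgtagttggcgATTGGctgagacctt
*Ren1* and *Agt* each held TATAAA on the gene's strand, beginning 29 and 30 bases before the start, respectively. *Atp6ap2* held no TATAAA but had CCAAT at 3 places, GGGCGG at 2 places on the opposite strand, and TGACGT at position -62. The CCAAT at position -70 shares 1 base with the GGGCGG match at position -75. Matches on either strand were also counted in 32851 RefSeq windows of 300 bases, from 250 before to 50 after the start. Of these, 13.6% held TATAAA, 37.4% CCAAT, 35.7% GGGCGG, 7.51% TGACGT and 16.3% AGGTCA. The stretches shown are shorter, so these shares are not a like background for them. AGGTCA was in none of the 3 stretches shown. In the windows not shown, TATAAA was found for *Ace* and *Enpep*, on the opposite strand, and not for *Mme* or *Anpep*. These matches are descriptions of the letters and were not tested as sites, and no link to the gap between the tissues was tested.

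In kidney, 1 of the 8 members, *Anpep*, was higher in WD than in CD, and the other 7 did not pass the test. *Anpep* encodes aminopeptidase N of the proximal tubule brush border, which cleaves angiotensin III, and its level was 17.0% higher. In the test used throughout (edgeR's quasi-likelihood F test, Benjamini-Hochberg adjusted p under 0.05 over all genes kept), 9.65% of all kidney genes passed in this comparison, and 4.62% passed as higher. The members' median log2 fold change was -0.02, beside 0.0015 over all genes, and 3 were positive and 5 negative. With CHP on the WD, 0 members passed, and 0 passed with DESeq2 or limma-voom. In this comparison 0.105% of all kidney genes passed. At an unadjusted p under 0.05, 1 member passed, *Ace*, where 11.4% of all genes did. The median log2 fold change of the members was -0.02, beside -0.0058 over all genes.

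WD+CHP was also set against CD, a comparison that the study did not make and that shares its libraries with both others. There, *Agtr1a* was lower, where 12.1% of all kidney genes passed and 5.84% passed as lower. The other 7 members did not pass.

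**Figure D2:**
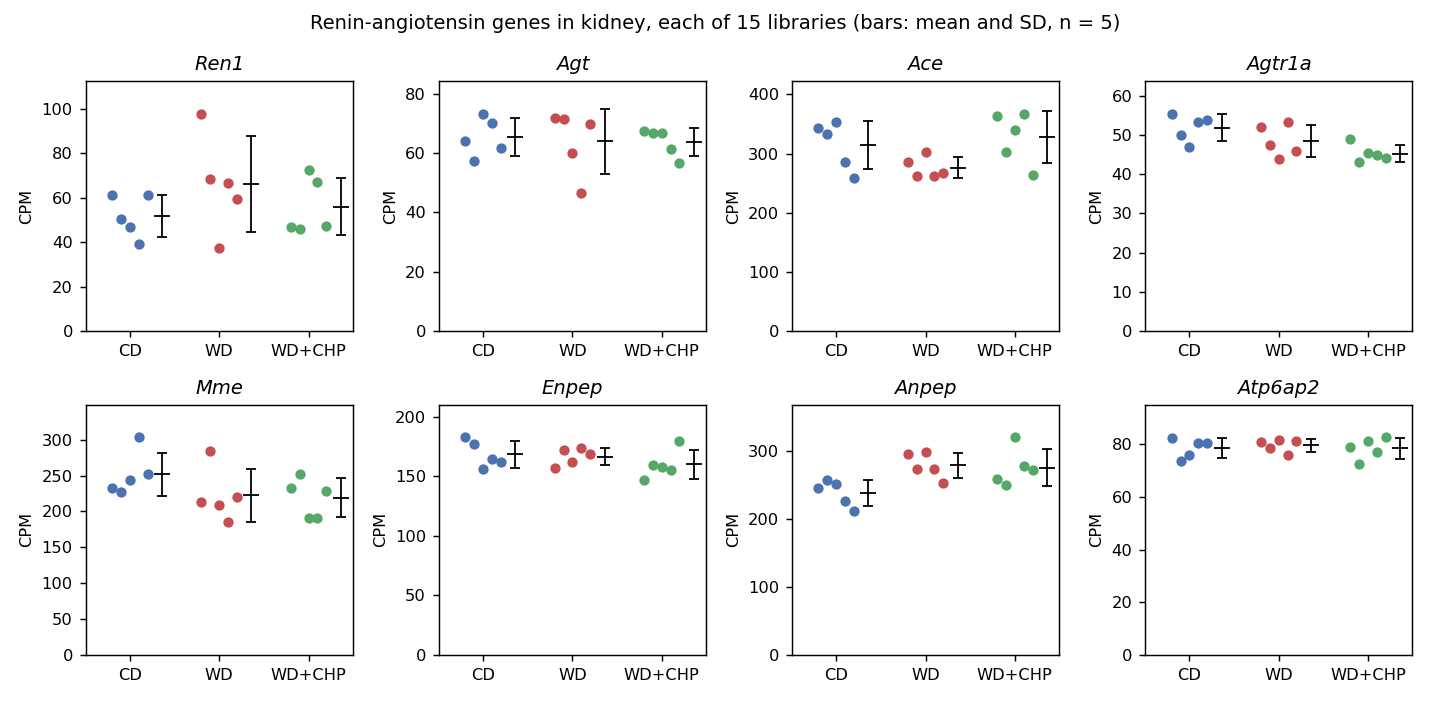
Level of each member in the 15 kidney libraries (CPM from 0, points by replicate number, bars give the mean and SD of 5 libraries). The WD points of *Anpep* lie mostly above the CD points, *Ren1* is the most spread, and *Atp6ap2* stays between 72.5 and 82.6 CPM.

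*Ren1* varied more between mice than any other member in kidney. Its level in CD replicates 1 to 5 was 61.3, 50.6, 46.9, 39.2 and 61.3 CPM. In WD it was 97.8, 68.3, 37.6, 66.5 and 59.6 CPM. In WD+CHP it was 46.7, 45.9, 72.6, 66.9 and 47.4 CPM. The WD group held both the highest and the lowest library of all 15, and the 3 groups overlapped. The CD group had a coefficient of variation of 18.4%, WD one of 32.7% and WD+CHP one of 22.9%. The log2 fold change was 0.35 ± 0.20 (SE, n = 5 per group) for WD vs. CD (adjusted p = 0.299 by edgeR). It was -0.24 ± 0.20 for WD+CHP vs. WD (adjusted p = 0.700 by edgeR). The 95% intervals were -0.08 to 0.77 and -0.66 to 0.18. Without WD replicate 1, the highest library, these values were 0.16 and -0.05, and without WD replicate 3, the lowest, they were 0.50 and -0.39. The summed level of 12 juxtaglomerular and macula densa markers was 103 to 122 CPM in CD, 121 to 140.0 in WD and 106 to 120.0 in WD+CHP. Of these 12 markers, 2 were higher in WD than in CD and 0 lower, and their part in the *Ren1* levels was not tested.

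*Agt* (chr8:124556534-124569706), which encodes angiotensinogen, lay in the same range in the 3 groups of kidneys. The CD libraries had 64.0, 57.3, 73.3, 70.2 and 61.8 CPM. Those of WD had 71.9, 71.5, 60.0, 46.6 and 69.9 CPM, and WD+CHP had 67.3, 66.8, 66.7, 61.5 and 56.5 CPM. The lowest library was WD replicate 4 and the groups overlapped. WD vs. CD gave a log2 fold change of -0.03 ± 0.10, and WD+CHP vs. WD gave -0.0045 ± 0.10. The WD library with the high hepatocyte marker sum, replicate 5, had 69.9 CPM, inside the range of the others, and without it the WD vs. CD value was -0.06.

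*Ace* (chr11:105967945-105989964) encodes angiotensin-converting enzyme, which sits on endothelium and on the tubule brush border. Its kidney level in CD was 343, 333, 354, 286 and 259 CPM. In WD it was 286, 262, 302, 263 and 268 CPM, and in WD+CHP it was 363, 303, 339.6, 367 and 264 CPM. Of the WD+CHP libraries, 4 lay above all WD libraries, and replicate 5 lay among them. The log2 fold change was -0.19 ± 0.09 for WD vs. CD (adjusted p = 0.218 by edgeR). For WD+CHP vs. WD it was 0.25 ± 0.09, with an unadjusted p of 0.0168 and an adjusted p of 0.312 by edgeR, so it did not pass. An exact permutation test of *Ace* alone gave p = 0.0476 (two-sided, unadjusted), where the smallest possible is 0.00794.

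*Agtr1a* (chr13:30336441-30382867) encodes the main AT1 receptor of rodents. In kidney it had 55.4, 49.9, 46.9, 53.2 and 53.8 CPM in CD. It had 51.9, 47.3, 43.9, 53.3 and 46.0 CPM in WD, and 48.8, 43.1, 45.4, 44.8 and 44.2 CPM in WD+CHP. The groups overlapped, with 4 of the 5 WD+CHP libraries below all CD libraries. The log2 fold changes of the study's own comparisons were -0.10 ± 0.06 for each, with 95% intervals of -0.22 to 0.03 for WD vs. CD and -0.22 to 0.02 for WD+CHP vs. WD, and neither passed (edgeR, adjusted p = 0.316 and 0.556). Set against CD, WD+CHP was lower by 12.7%, a log2 fold change of -0.20 ± 0.06 (adjusted p = 0.0376 by edgeR). This call was lost without CD replicate 1, 2, 4 or 5 (edgeR, adjusted p = 0.101, 0.0542, 0.0778 and 0.102), and without WD+CHP replicate 2, 3, 4 or 5 (0.0859, 0.0773, 0.0841 and 0.0701). It was also lost with no filter and with offsets for gene length and GC content (edgeR, adjusted p = 0.0532 and 0.0521).

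Of the 3 membrane peptidases, only *Anpep* (chr7:79821803-79861059) passed in kidney. Its level in CD was 246, 257, 251.8, 226 and 212 CPM. In WD it was 296, 274, 299, 274 and 253 CPM, and in WD+CHP 259, 250.2, 320.2, 278 and 272 CPM. WD replicate 5 overlapped with CD, and the other 4 WD libraries lay above all CD libraries. The log2 fold change for WD vs. CD was 0.23 ± 0.07 (adjusted p = 0.0465 by edgeR, exact permutation p = 0.0159). With CHP on the WD it was -0.02 ± 0.07 (95% interval -0.16 to 0.13), and WD+CHP vs. CD gave 0.21 ± 0.07 (adjusted p = 0.0556 by edgeR). The WD vs. CD call was lost without CD replicate 1, 4 or 5 (edgeR, adjusted p = 0.0649, 0.0809 and 0.1003) and without WD replicate 1, 2, 3 or 4 (0.105, 0.0674, 0.108 and 0.0634). The summed level of 15 proximal tubule markers was 16000 to 17300 CPM in CD, 16600 to 17900 in WD and 16400 to 18600 in WD+CHP. Of these 15, 2 were higher and 2 lower in WD than in CD, and their part in the *Anpep* level was not tested. The same holds for the share of reads on mitochondrially encoded genes, which was 17.8% to 19.6% in the CD kidneys, 18.7% to 20.85% with WD and 18.9% to 21.1% with CHP added.

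*Mme* (chr3:63241537-63386030), which encodes neprilysin, and *Enpep* (chr3:129269175-129332720), which encodes aminopeptidase A and turns angiotensin II into angiotensin III, did not pass in any kidney comparison. *Mme* had 227 to 303 CPM in CD, 186 to 284 in WD and 190.3 to 253 in WD+CHP. Its log2 fold change was -0.18 ± 0.11 for WD vs. CD and -0.02 ± 0.11 for WD+CHP vs. WD. *Enpep* had 156 to 182 CPM in CD, 156 to 173 in WD and 147 to 179 in WD+CHP, with log2 fold changes of -0.02 ± 0.05 and -0.06 ± 0.05. The groups overlapped for both genes.

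*Atp6ap2* (chrX:12587801-12617049) encodes the prorenin receptor, which is also an accessory subunit of the vacuolar proton pump. It had the narrowest intervals of all members in either tissue. The coefficient of variation within groups was 2.94% to 5.01% in kidney and 4.80% to 6.88% in gastrocnemius. The log2 fold change for WD vs. CD was 0.02 (95% interval -0.07 to 0.11) in kidney and 0.04 (-0.08 to 0.16) in gastrocnemius. For WD+CHP vs. WD it was -0.02 (-0.11 to 0.07) and -0.06 (-0.18 to 0.06).

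In gastrocnemius, 2 of the 7 members tested were lower in WD than in CD, *Agt* by 21.6% and *Agtr1a* by 24.0%, and 0 were higher. Over all muscle genes, 8.63% passed in this comparison and 3.96% passed as lower. The median log2 fold change of the 7 was 0.0012, beside 0.0013 over all genes, and 4 were positive and 3 negative. With CHP on the WD, 0 of 7 passed by edgeR, DESeq2 or limma-voom, where 0.409% of all genes passed by edgeR. At an unadjusted p under 0.05, 3 of the 7 passed by edgeR, *Agt*, *Mme* and *Anpep*, where 12.5% of all genes did. The median log2 fold change was -0.06, beside -0.013 over all genes. WD+CHP set against CD left 1 member lower, *Agtr1a*, where 9.40% of all genes passed and 4.55% passed as lower, and the 7 log2 fold changes ran from -0.42 to -0.02.

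**Figure D3:**
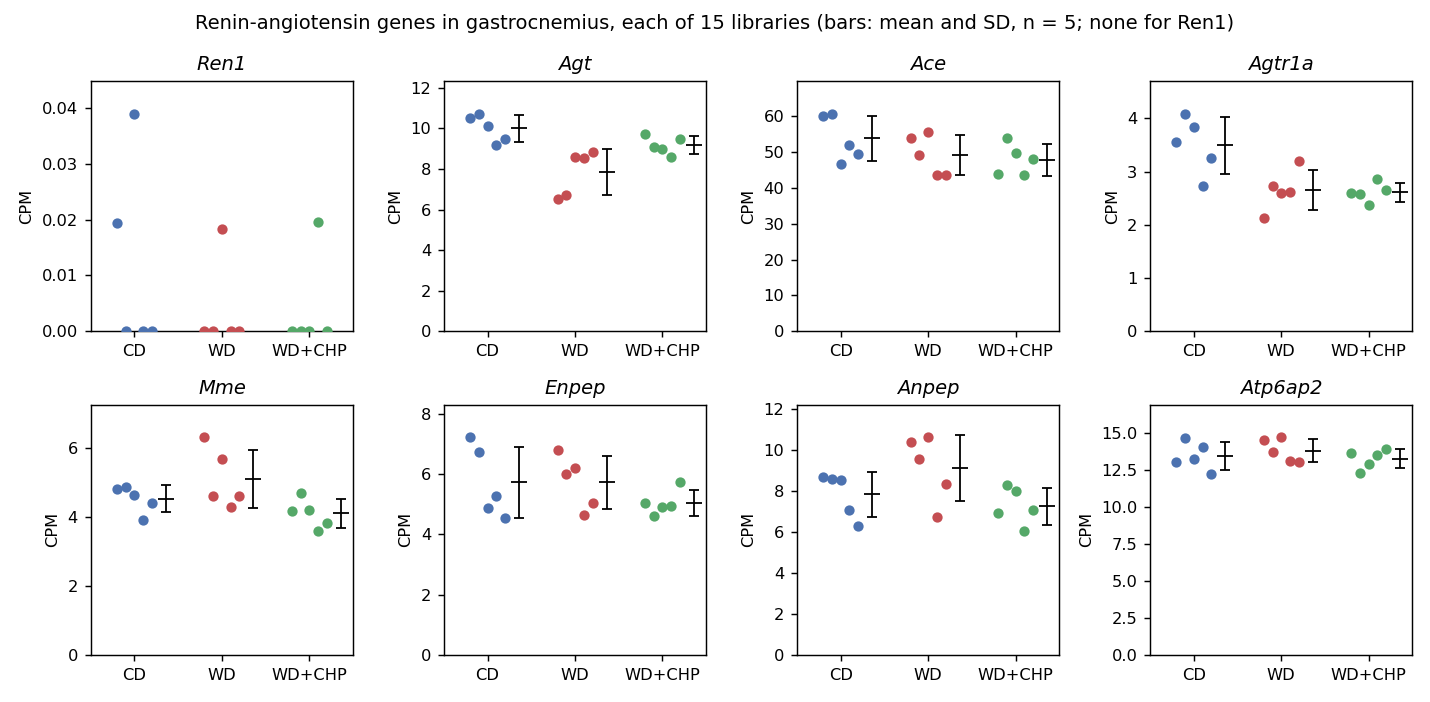
Level of each member in the 15 gastrocnemius libraries (CPM from 0, points by replicate number, bars give the mean and SD of 5 libraries, with no bar for *Ren1*). The *Agt* points of WD lie below all CD points, and *Ren1* is at 0 in 11 libraries.

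Muscle *Agt* had 10.5, 10.7, 10.1, 9.16 and 9.49 CPM in CD. It had 6.50, 6.72, 8.59, 8.53 and 8.86 CPM in WD, and 9.75, 9.10, 8.97, 8.59 and 9.51 CPM in WD+CHP. All 5 WD libraries lay below all 5 CD libraries, with replicates 1 and 2 lowest, and 7.84% of all muscle genes did not overlap between these groups. *Agt* fell by 0.35 ± 0.09 on the log2 scale (adjusted p = 0.0162 by edgeR). The exact permutation test gave p = 0.00794, the smallest it allows, which follows from the lack of overlap and adds nothing to it. With CHP on the WD the log2 fold change was 0.23 ± 0.09, with 4 of the 5 WD+CHP libraries above all WD libraries. That difference had an unadjusted p of 0.0169 and an adjusted p of 0.278 by edgeR, and did not pass. WD+CHP vs. CD gave -0.12 ± 0.09 (adjusted p = 0.392 by edgeR). The WD vs. CD call held without each library in turn (edgeR, adjusted p = 0.00986 to 0.0461), including CD replicate 1 and WD replicate 3, which held the most hepatocyte marker reads. It was lost when libraries were scaled by their total count (edgeR, log2 fold change -0.28, adjusted p = 0.0688).

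Muscle *Agtr1a* had 3.56, 4.09, 3.84, 2.73 and 3.25 CPM in CD. It had 2.13, 2.73, 2.60, 2.62 and 3.20 CPM in WD, and 2.59, 2.57, 2.37, 2.86 and 2.65 CPM in WD+CHP. In WD, 3 libraries lay below all CD libraries, and CD replicate 4 lay among the WD libraries. These levels rest on 112 to 216 reads per library. *Agtr1a* fell by 0.40 ± 0.12 on the log2 scale in WD vs. CD (adjusted p = 0.0420 by edgeR). WD+CHP and WD were close, with a log2 fold change of -0.03 ± 0.12 (95% interval -0.27 to 0.22), and WD+CHP vs. CD gave -0.42 ± 0.12 (adjusted p = 0.0307 by edgeR). The WD vs. CD call was lost without CD replicate 1, 2, 3 or 5 (edgeR, adjusted p = 0.0748, 0.0907, 0.0980 and 0.0552) and without WD replicate 1, 2, 3 or 4 (0.0971, 0.0705, 0.0812 and 0.0710). The WD+CHP vs. CD call was lost without CD replicate 1, 2 or 3 (edgeR, adjusted p = 0.0583, 0.0682 and 0.0779) and without WD+CHP replicate 1, 2, 3 or 5 (0.0505, 0.0627, 0.0837 and 0.0566). With the replicate block, with no filter and with total-count scaling both calls were lost too (edgeR, adjusted p = 0.0717, 0.0627 and 0.0992 for WD vs. CD, and 0.0579, 0.0502 and 0.0585 for WD+CHP vs. CD). The WD vs. CD call was also lost with only the 2 groups compared and with the block and the length and GC correction (edgeR, adjusted p = 0.0873 and 0.0520).

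Adipocyte markers moved with the groups in muscle. The summed level of 10 of them was 139 to 216 CPM in CD, 203 to 248 in WD and 127 to 196 in WD+CHP. Of the 10, 4 were higher and 1 lower in WD than in CD, and 4 were lower and 0 higher in WD+CHP than in WD, with none at 0. Fast fibre markers summed to 252000 to 299000 CPM in CD, 221000 to 254000 in WD and 231000 to 269000 in WD+CHP. Of the 12, 3 were lower in WD than in CD, and 0 passed in WD+CHP against WD or CD. Mitochondrially encoded genes held 7.74% to 10.25% of a library's reads in the CD muscles, 9.09% to 10.5% with WD and 9.49% to 11.5% with CHP added, and their part in the *Agt* and *Agtr1a* levels was not tested. An adipocyte score, the mean of the markers' log2 CPM centred per gene, was also fitted as a covariate. It was 0.354 to 0.673 in WD and -0.522 to 0.0622 in CD, without overlap. The fit could thus tell score from diet only by the spread within groups. The log2 fold changes for WD vs. CD were then -0.43 for *Agt* and -0.55 for *Agtr1a* (edgeR, unadjusted p = 0.00800 and 0.00987). Neither passed (edgeR, adjusted p = 0.2516 and 0.267). In that fit the number of all muscle genes that passed went from 1330 to 27.

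**Figure D4:**
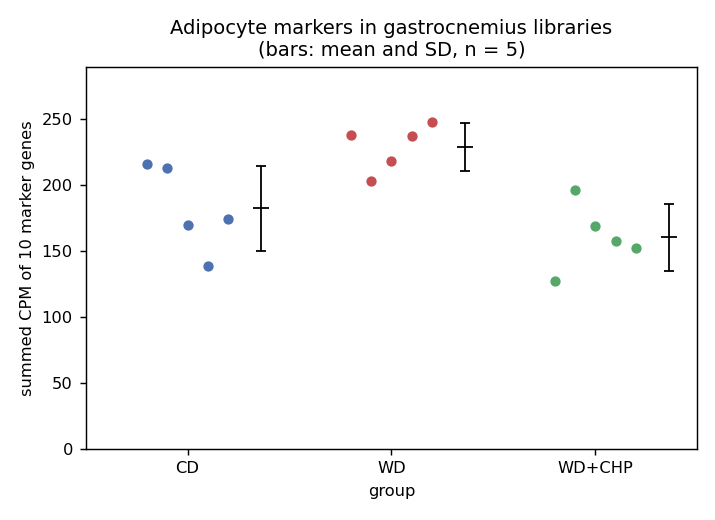
Summed CPM of 10 adipocyte markers in each gastrocnemius library, by group, where points are libraries and bars give the mean and SD of 5. The sum is highest in WD (203 to 248), and only CD replicates 1 and 2 reach into the WD range.

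Muscle *Ace*, *Mme*, *Enpep* and *Anpep* did not pass in any comparison. *Ace* had 46.8 to 60.8 CPM in CD, 43.6 to 55.8 in WD and 43.5 to 54.0 in WD+CHP, with a log2 fold change of -0.13 ± 0.09 for WD vs. CD. *Enpep* ranged from 4.53 to 7.22 CPM over all groups. *Mme* had 4.82, 4.88, 4.64, 3.91 and 4.42 CPM in CD, 6.31, 4.61, 5.68, 4.30 and 4.61 CPM in WD, and 4.17, 4.71, 4.22, 3.59 and 3.84 CPM in WD+CHP. In WD+CHP, 4 libraries were below all WD libraries, and the log2 fold change for WD+CHP vs. WD was -0.31 ± 0.11 (adjusted p = 0.239 by edgeR). *Anpep* had 8.67, 8.57, 8.53, 7.04 and 6.30 CPM in CD, 10.3, 9.53, 10.6, 6.74 and 8.35 CPM in WD, and 6.92, 8.29, 7.98, 6.02 and 7.04 CPM in WD+CHP. Its log2 fold change was 0.22 ± 0.13 for WD vs. CD and -0.33 ± 0.13 for WD+CHP vs. WD (adjusted p = 0.303 and 0.281 by edgeR), and the groups overlapped. Macrophage markers, 8 in all, summed to 70.8 to 118 CPM in CD, 79.7 to 118 in WD and 59.5 to 115 in WD+CHP, and 0 of 8 passed in either comparison. Their part in the *Anpep* and *Mme* levels was not tested.

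**Figure D5:**
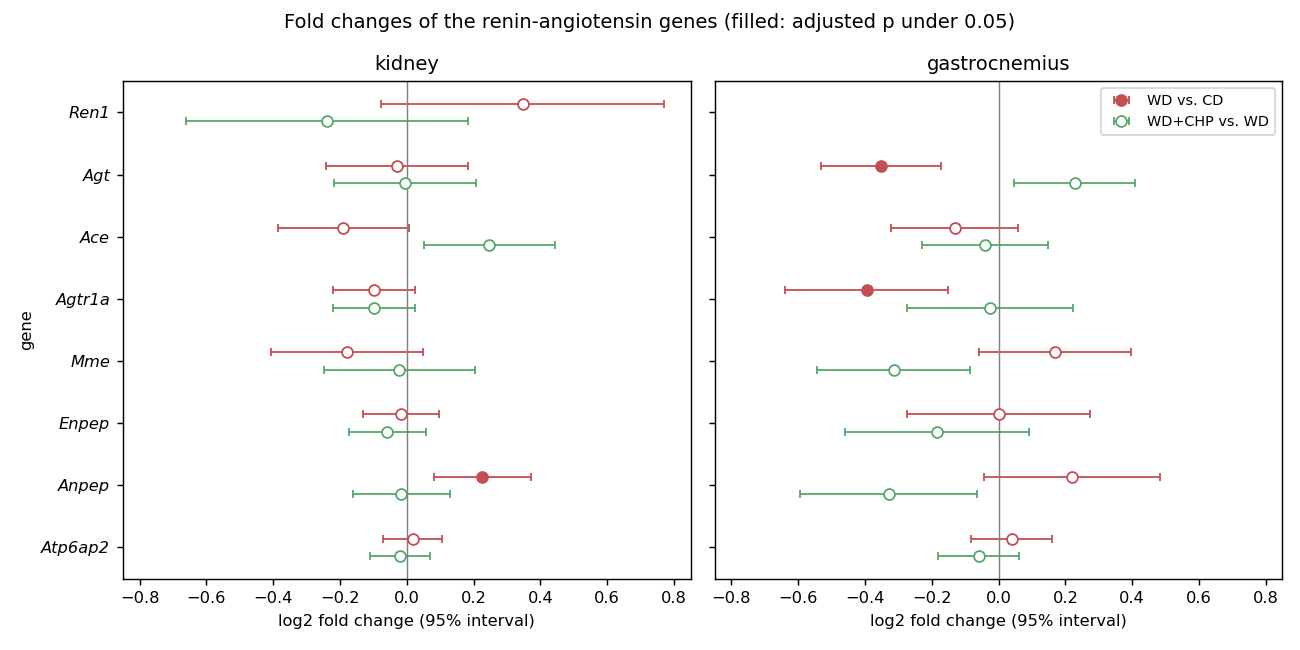
Log2 fold changes with 95% intervals for the members, WD vs. CD in red and WD+CHP vs. WD in green, filled where the adjusted p was under 0.05. In kidney *Anpep* is filled, in gastrocnemius *Agt* and *Agtr1a*, all for WD vs. CD, and no green point is filled.

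Whether an effect differed between the tissues was tested in 1 fit over all 30 libraries. That fit had no term for the mouse and took the libraries as independent, although some mice gave both tissues. For the diet effect, 0 of the 7 members kept in both tissues had an interaction past the threshold, where 4.13% of all genes did. *Ren1*, with 5 muscle reads in all, could not be compared in this way. Among the other 7 members the largest differences, kidney minus gastrocnemius on the log2 scale, were -0.35 ± 0.16 for *Mme*, 0.32 ± 0.14 for *Agt* and 0.30 ± 0.12 for *Agtr1a* (edgeR, adjusted p = 0.246, 0.217 and 0.183). Without replicate 4 of every group the *Agt* difference was 0.51 (adjusted p = 0.0391 by edgeR), and without replicate 1 or 2 it was 0.18 or 0.16 (adjusted p = 0.615 and 0.698 by edgeR). For the CHP effect 0 of these 7 passed, where 0.347% of all genes did, and the largest difference was that of *Anpep* (0.30 ± 0.15, adjusted p = 0.415 by edgeR). The fall of muscle *Agt* and *Agtr1a* was therefore not shown to be particular to muscle.

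A list of 20 further genes of the pathway was read beside the members, with 14 kept by the filter in each tissue. In kidney, 1 of the 14 was higher and 0 were lower in WD than in CD, where 4.62% of all genes passed as higher and 9.65% in either direction. *Klk1*, tissue kallikrein, which releases kinins that oppose angiotensin II, had 1092 to 1430.0 CPM in CD and 1585 to 1711 in WD, without overlap, where 8.70% of all kidney genes did not overlap. Its log2 fold change was 0.41 ± 0.07 (adjusted p = 0.00162 by edgeR), and with CHP it was -0.11 ± 0.07 (adjusted p = 0.594 by edgeR). In WD+CHP vs. CD, 2 of the 14 passed, where 12.1% of all genes did. *Klk1* and *Nln*, the peptidase neurolysin, were higher by 0.31 ± 0.07 and 0.17 ± 0.04 on the log2 scale (edgeR, adjusted p = 0.00919 and 0.0133). In gastrocnemius, 1 of the 14 was lower in WD, where 3.96% of all genes passed as lower. It was *Thop1*, which encodes thimet oligopeptidase, with 25.2 to 30.4 CPM in CD and 21.7 to 25.6 in WD (log2 fold change -0.23 ± 0.06, adjusted p = 0.0348 by edgeR). That call was lost without CD replicate 3, 4 or 5 (edgeR, adjusted p = 0.0848, 0.0725 and 0.0911), without WD replicate 1, 2, 3 or 5 (0.0640, 0.0559, 0.0608 and 0.0704). It was also lost by total-count scaling, with no filter, with the replicate block and with only the 2 groups compared (edgeR, adjusted p = 0.0795, 0.0640, 0.0590 and 0.0511). With the adipocyte score as a covariate its log2 fold change was -0.07 (adjusted p = 0.826 by edgeR). With CHP on the WD, 0 of 14 passed in either tissue, where 0.105% of all kidney genes and 0.409% of all muscle genes did.

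The other angiotensin receptor genes had few reads. *Agtr1b* had a median of 2 reads per library in either tissue, and *Agtr2*, the AT2 receptor gene, 3 in kidney and 1 in gastrocnemius. *Mas1*, the receptor gene for angiotensin-(1-7), had a median of 0.839 CPM (31 reads) in kidney and 0.305 CPM (16 reads) in gastrocnemius, and passed the filter in both. *Cltrn*, which encodes collectrin, a partner of amino acid transporters, had 765.5 to 894 CPM in kidney and a median of 1 read in gastrocnemius. *Cma1* and *Cpa3*, mast cell proteases of which chymase can also make angiotensin II, had medians of 0.672 and 1.03 CPM in gastrocnemius and 1 read each in kidney.

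For each member, the genes whose log2 CPM ran most like it over the 15 libraries of a tissue were found by Pearson's r among the 12407 kidney and 10818 gastrocnemius genes with a mean log2 CPM of at least 1. The r is given as a description, since the libraries share depth, diet group and cell makeup. In kidney, *Anpep* ran most like *Dlst* (r = 0.956, and 0.925 within groups), *Phyh* (0.916) and the organic anion transporter gene *Slc22a6* (0.910). *Ace* ran most like *Aldh3a2* (0.918), *Agt* like *Suz12* (0.914), *Mme* like *Abcc9* (0.907), *Agtr1a* like *Map3k11* (0.883), *Enpep* like *Dennd4b* (0.843), *Ren1* like *Necap2* (0.812) and *Atp6ap2* like *Pdxk* (0.810). In gastrocnemius, *Agt* ran most like the circadian repressor gene *Nr1d1* (0.895, and 0.774 within groups), followed by *Zfp41* (0.876, and 0.925 within groups) and *Itpk1* (0.871, and 0.713 within groups). *Nr1d1* fell by 0.88 on the log2 scale in WD vs. CD (adjusted p = 0.00168 by edgeR), and its WD+CHP vs. WD value was 0.40 (adjusted p = 0.274 by edgeR). *Anpep* ran most like *Bgn* (0.939), *Csf1r* (0.932) and *Tbc1d2b* (0.924), and *Mme* like *Epb41l2* (0.926), *Lcp1* (0.889) and *F13a1* (0.877). *Ace* ran most like *Arhgap32* (0.902), followed by *Osr1* and the fibroblast marker *Pdgfra* (0.894 each). *Agtr1a* ran most like *Zfp395* (0.882), *Enpep* like *Angptl1* (0.882) and *Atp6ap2* like *Plxna1* (0.857).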

How the data were processed

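Kidney and gastrocnemius RNA was sequenced, with 5 libraries in each group of each tissue. The authors extracted RNA from frozen tissue, enriched it for polyA, sequenced it on the BGISEQ-500, cleaned the reads with SOAPnuke, and deposited raw counts, that is whole reads per gene for every library, with no normalisation. The submitters' processing notes name STAR 2.7.3a and GRCm38/mm10. The counting tool, annotation and strand setting are not given in the sources used here, so overlapping and antisense genes cannot be told apart. Per the labels the starting tissue was frozen liver and the kits differed between tissues, whereas the paper's methods name kidney or gastrocnemius and 1 kit. All later steps were computed here from the counts, and 0 columns were left without a sample.

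Models were fitted with edgeR 4.0.16 (R 4.3.3), and limma 3.58.1 and DESeq2 1.42.0 served as alternatives. Figures used matplotlib 3.10.9 (Python 3.11.15). In each tissue, filterByExpr (minimum count 10, by group) kept 17120 kidney and 15419 gastrocnemius genes. After TMM scaling, 1 model per tissue held the 3 groups, and contrasts were tested by the two-sided quasi-likelihood F test. P-values were adjusted by Benjamini-Hochberg over every kept gene and called under 0.05. CPM uses the TMM-scaled sizes and log2 CPM a prior count of 2. Exon lengths and coordinates came from GENCODE M21 (GRCm38), which held 54809 kidney and 55227 gastrocnemius identifiers. Tests of single values were exact permutation tests over all splits of 10 libraries. Libraries of a group differed by more than counting error (chi-square per gene 8.26 to 69.0), and common biological variation was 9.62% in kidney and 11.6% in gastrocnemius. The models were tested on simulated data.

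The genes named are all 8 members, the other pathway genes with an adjusted p under 0.05 in any comparison, the pathway genes with few reads, which were chosen after their values were seen, and, by likeness, up to 3 genes per member with the highest Pearson's r. The members and lists were chosen with earlier results of these data known. Alternatives tried were the tests of DESeq2 and limma-voom; scaling by total count or by the size factors of DESeq2; a filter of 10 counts per library, or none; a threshold of 0.1; a replicate block; offsets for length and GC content, also together with the block; a fit of only 2 groups; leaving out single libraries; exact permutation per gene; and an adipocyte covariate. A gene of the pathway, with the results that need it, is not reported here. The paper's supplement lists fewer mice of this age than the 30 libraries, so some mice gave both tissues. The sources do not say which.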

Additional observations from a re-analysis of the deposited data

How the results depend on the processing

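The count of members called moved with several settings. For WD vs. CD in gastrocnemius it was 2 (of 1330 genes called in all), and 1 with no filter (994), with the replicate block (1147), with the block and the length and GC correction (1476) or with only the 2 groups (1009), and 0 with the total count (1852) or the adipocyte covariate (27). The call lost at 1 was *Agtr1a* (adjusted p 0.0520 to 0.0873). For WD+CHP vs. CD in gastrocnemius it was 1 (of 1450), and 0 with the total count (1394), no filter (1047), the replicate block (1242) or the adipocyte covariate (1644) (*Agtr1a*, adjusted p 0.0502 to 0.0585). For WD+CHP vs. CD in kidney it was 1 (of 2070), and 2 with DESeq2 (2374), an adjusted p under 0.1 (3232), the replicate block (1970) or the block and the length and GC correction (2066), and 0 with no filter (1579). With the length and GC correction alone it was 1, *Anpep* in place of *Agtr1a* (0.0274 and 0.0521). The call of *Anpep* for WD vs. CD in kidney held under all 11 settings other than leaving libraries out, and the counts of 0 for WD+CHP vs. WD held in both tissues. The adipocyte score was higher in every WD than in every CD muscle library, which limits what its fit can show for WD vs. CD. The cause of these moves was not tested.

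Leaving out each library gave, in kidney, 0 to 1 members for WD vs. CD (1142 to 1744 genes called in all) and 0 to 2 for WD+CHP vs. CD (1202 to 2150). In gastrocnemius it gave 1 to 2 (965 to 1421) and 0 to 1 (873 to 1617). Leaving out each replicate number from every group at once gave 0 to 1 for the diet interaction (371 to 552, against 772). No member's call reversed. Total-count scaling moved the median of all muscle genes by 0.07 (log2) in WD vs. CD, and the genes called went from 720 higher and 610 lower to 1506 and 346. In kidney WD+CHP vs. CD they went from 1070 and 1000 to 660 and 1814.

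Equal replicate numbers did not pair the samples (correlations of deviations from -0.126 to 0.146), and in 7 of 30 comparisons of a library with the 5 of another group the best partner had its own number. Depth limits *Ren1* in muscle and the receptor genes with few reads.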
